A study of Mus musculus with 6 samples.

Results

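The transcription factors that set the T helper and effector fates of CD4 T cells were followed in adaptive regulatory T cells (aTreg), as a list of 9 genes named by symbol: Tbx21, Eomes, Gata3, Rora, Bcl6, Prdm1, Irf4, Maf and Ahr. All 9 were found by symbol among the 25759 genes of the table. 8 of them had a mean of at least 1 FPKM and entered the test, and Prdm1 lay below that level. The libraries were 3 from wild type (WT) and 3 from BMPR1a-deficient aTreg of C57BL/6 mice aged 8 to 12 weeks. Mice of both groups carried a Foxp3-GFP reporter transgene, and in the deficient group (BMPR/CD4cre) Cre under Cd4 control deletes BMPR1a in T cells. BMPR1a is a cell surface kinase that binds bone morphogenetic proteins. Whole lymph node and spleen cells were kept for 3 days with concanavalin A (2 µg/ml), a T cell mitogen, IL-2 (10 ng/ml) and the cytokine TGF-beta (3 ng/ml), and CD4+ GFP+ cells were then sorted. Cells already Foxp3-positive at the start of culture would fall in the same gate as newly converted ones. Whether the 3 libraries of a group stem from different mice or cultures is not stated, so the p-values reflect the variation among these samples alone, and that may be technical.

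A naive CD4 T cell takes on 1 of several effector programmes, and each rests on its own transcription factors, among them T-bet (Tbx21) for Th1, GATA3 for Th2, ROR alpha (Rora) for Th17 and BCL6 for follicular helper (Tfh) cells. Blimp-1 (Prdm1) opposes BCL6, and IRF4, c-MAF and the aryl hydrocarbon receptor (Ahr) act in several of these programmes. Regulatory T cells are known to use the same factors at lower or shared levels, beside Foxp3, to take up specialised states.

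The labelled identity was checked first. FPKM values correct fragment numbers for the length of a transcript and the size of a library, which allows levels of different genes to be compared. Cd4 was between 329 and 436 FPKM and Foxp3 between 49.4 and 96.9 in the 6 libraries. The 4 regulatory T cell markers Foxp3, Il2ra, Ctla4 and Ikzf2 summed to 375 to 421 FPKM in WT. In deficient replicates 1, 2 and 3 they summed to 257, 444 and 422. The 4 markers Cd3e, Cd3g, Cd4 and Cd2 summed to 1471 to 1497 in WT and 1390 to 1430 in deficient aTreg. Deficient replicate 1 was the lowest library for Ctla4 (103 FPKM) and Cd3e (118) and the highest for Cd4 (436). Bmpr1a lay between 1.31 and 2.34 FPKM in WT and between 0.439 and 0.720 in the deficient libraries, without overlap and without passing the test over all genes (limma log2 fold change -0.71, adjusted p = 0.183). The 4 NK cell markers Ncr1, Klrb1c, Klra8 and Klre1 and all 6 dendritic cell markers were below 1 FPKM in every library. B cell markers summed to 480 to 503 FPKM in WT and 335 to 498 in deficient aTreg, most of it Ighm, and Cd8a and Cd8b1 together to 32.0 to 41.8 and 37.9 to 68.4. Myeloid markers summed to 28.1 to 150 in WT and 23.1 to 236 in the deficient group, and plasma cell markers to 5.23 to 7.00 and 2.60 to 7.33. BMPR1a-deficient replicate 1 stood apart: its 13 mitochondrially encoded messages had a mean log2 level of -3.43 relative to the WT mean, against -0.20 in each of the other deficient libraries.

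RefSeq promoter windows of GRCm38.p6 were found for 7 of the 9 genes, and the 250 bases before the start are shown for Tbx21 and Rora, both of whose groups did not overlap, and for the inner start of Bcl6, the Tfh factor, because it held the most STAT matches. All are written 5′ to 3′ on the strand of the gene. Capitals mark a match to a searched motif on either strand: AP-1 (TGANTCA), the GC-rich SMAD site (GGCGCC), the SMAD palindrome (GTCTAGAC), STAT (TTCNNNGAA) and the AHR core (GCGTG).
Tbx21, chr11:97115332-97115581, minus strand: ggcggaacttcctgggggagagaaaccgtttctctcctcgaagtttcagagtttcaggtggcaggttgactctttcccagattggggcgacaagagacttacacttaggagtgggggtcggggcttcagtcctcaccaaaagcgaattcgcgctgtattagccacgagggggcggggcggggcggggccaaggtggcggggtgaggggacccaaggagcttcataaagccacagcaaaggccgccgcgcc
Rora, chr9:68653536-68653785, plus strand: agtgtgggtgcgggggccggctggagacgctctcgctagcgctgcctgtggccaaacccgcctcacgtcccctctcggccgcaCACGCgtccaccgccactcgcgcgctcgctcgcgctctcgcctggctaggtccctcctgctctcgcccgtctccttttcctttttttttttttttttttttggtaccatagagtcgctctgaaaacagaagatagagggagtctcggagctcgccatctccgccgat
Bcl6, chr16:23981284-23981533, minus strand: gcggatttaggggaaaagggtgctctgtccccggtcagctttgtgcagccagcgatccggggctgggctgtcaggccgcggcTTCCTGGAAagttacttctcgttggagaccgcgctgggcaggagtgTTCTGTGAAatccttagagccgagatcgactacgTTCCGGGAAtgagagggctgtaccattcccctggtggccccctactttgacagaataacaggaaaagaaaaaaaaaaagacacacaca
The Tbx21 window held 0 matches to the 5 motifs. The Rora window held 1 AHR core, which 28.2% of all 32851 windows of this length hold at least once. The Bcl6 window held 3 STAT matches, where 7.02% of all windows hold at least 1. Of the other windows, that of the outer Bcl6 start held 1 STAT match, that of Irf4 held 1 AHR core and that of Prdm1 2, with 1 AP-1 match (6.75% of all windows). A GC-rich SMAD match was found in the Gata3 window, which lies within an annotated exon (9.59% of all windows hold one), and the SMAD palindrome (0.167% of all windows) in 0 of the windows of these genes. Such a match is a run of letters and not a measured binding site.

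By level the 9 factors spread over a wide range, from abundant Irf4 and Gata3 to Prdm1 below 1 FPKM. In WT aTreg the means ran from Irf4 at 28.6 FPKM through Gata3 (23.7), Bcl6 (13.8), Tbx21 (9.28), Maf (8.59), Eomes (6.93), Ahr (2.81) and Rora (1.70) to Prdm1 at 0.488. The WT ranges of Irf4 and Gata3 overlapped, as did those of Tbx21 with Maf and of Maf with Eomes, and the other neighbours in the order were separate. Among all tested genes Irf4 stood at the 70.9th percentile of WT means, Gata3 at the 66.3rd, Tbx21 at the 41.3rd and Rora at the 8.9th. In BMPR1a-deficient aTreg Irf4 (33.9 FPKM) and Gata3 (33.6) again led and overlapped. Then came Maf (14.7), Tbx21 (12.5), Bcl6 (12.4), Eomes (4.92), Ahr (4.26), Rora (3.06) and Prdm1 (0.462). Only Gata3 with Maf, Bcl6 with Eomes and Rora with Prdm1 were separate neighbours in that order. Maf stood above Tbx21 and Bcl6 there and below both in WT. Without deficient replicate 1 Bcl6 stood above Maf in the deficient group too, and Gata3 above Irf4, and 4 of the 9 factors kept their rank.

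**Figure D1:**
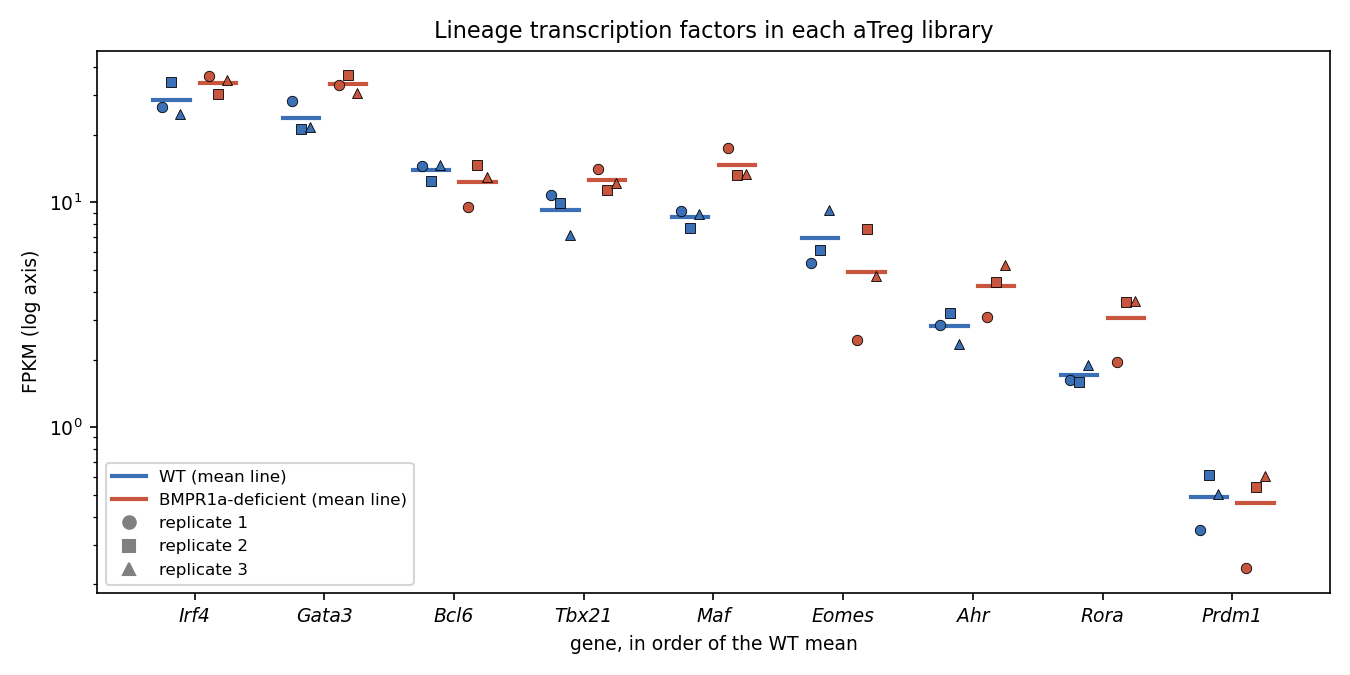
FPKM of the 9 transcription factors on a log axis, one symbol for each library (shape by replicate number, blue WT, red BMPR1a-deficient) and a line at each group mean of 3. Irf4 and Gata3 lie highest in both groups, Prdm1 lies below 1 FPKM in all 6 libraries, and the groups do not overlap for Gata3, Tbx21, Maf and Rora.

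None of the factors passed the test of BMPR1a-deficient against WT aTreg. At a limma adjusted p under 0.05 over all genes, 0 of the 8 tested factors were called, where 1.07% of the 13413 tested genes were (0.746% higher and 0.321% lower). An unadjusted p under 0.05 was reached by 3 of them (Maf, Gata3 and Rora), all with positive fold changes, beside 15.2% of all tested genes in either direction and 9.29% higher. In 4 of the 8 (Maf, Gata3, Rora and Tbx21) every deficient library lay above every WT library, an arrangement that 15.9% of tested genes show, and 0 lay wholly below, beside 10.4%. The median log2 fold change of the 8 was 0.43, against 0.038 over all tested genes, and 6 of the 8 values were positive. Since the genes were chosen with earlier results of these data known, these counts are a description. In such bulk libraries a change in the share of cells with a factor and a change in its RNA per cell cannot be told apart.

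**Figure D2:**
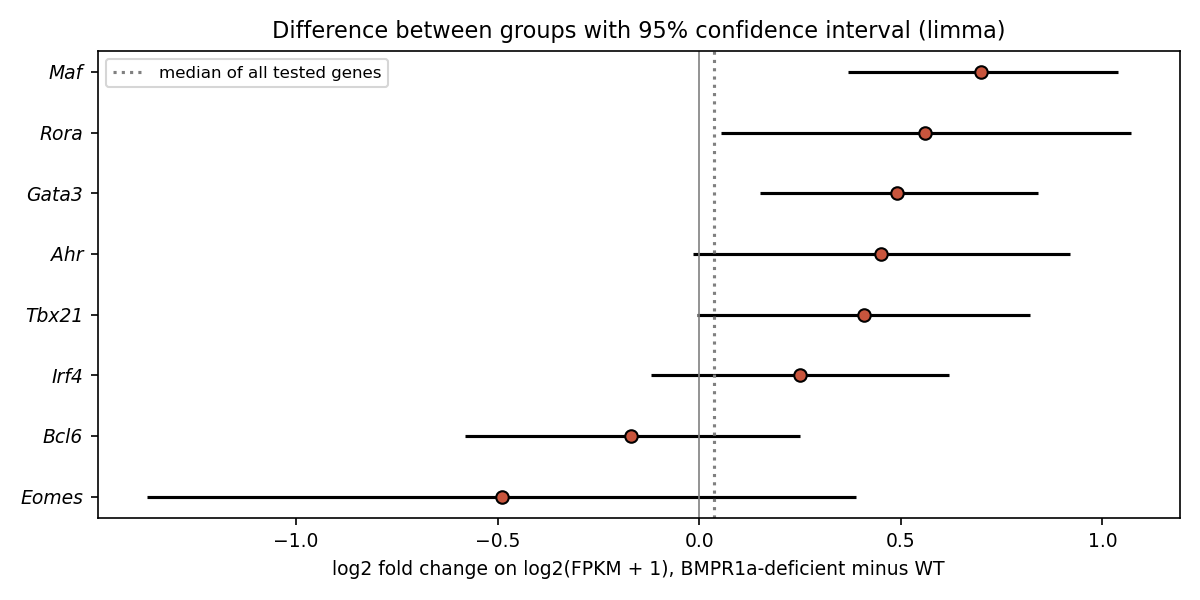
Log2 fold change on log2(FPKM + 1), BMPR1a-deficient minus WT, with its 95% confidence interval from limma (3 libraries a group), and a dotted line at the median of all tested genes, 0.038. The intervals of Maf, Rora and Gata3 lie above 0, those of the other 5 factors include it, and that of Eomes is the widest, from -1.37 to 0.39.

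The T-box factors lay in opposite directions. Tbx21 (ENSMUSG00000001444, chromosome 11, 97098071 to 97115331 in GRCm38), which drives interferon gamma in Th1 cells, had 10.8, 9.92 and 7.14 FPKM in the WT libraries and 14.1, 11.3 and 12.2 in the deficient ones. Every deficient value was above every WT value, with a narrow gap, and the ratio of the group means was 1.35. Its log2 fold change was 0.41 (SE 0.168, 95% interval -0.0043 to 0.82, limma adjusted p = 0.334), and the exact two-sided permutation test gave p = 0.1, the smallest that 3 against 3 libraries allow. Eomes (ENSMUSG00000032446, chromosome 9, 118478212 to 118486132), its relative in cytotoxic and memory T cells, had 5.40, 6.16 and 9.24 FPKM in WT and 2.45, 7.58 and 4.72 in deficient aTreg. The groups overlapped, with deficient replicate 1 lowest and WT replicate 3 highest, and the log2 fold change was -0.49 (SE 0.361, limma adjusted p = 0.546). Without deficient replicate 1 the log2 fold change of Eomes was -0.15. Tbx21 exceeded Eomes in 5 of 6 libraries, at ratios between 0.773 and 2.00 in WT and between 1.48 and 5.74 in the deficient group. Cd8a, a marker of the CD8 T cells that use both factors, was at 11.7, 9.56 and 8.80 FPKM in WT and at 13.8, 17.2 and 29.1 in deficient aTreg (limma adjusted p = 0.236). Cd8b1, the other CD8 marker, overlapped at 30.1, 23.1 and 23.2 against 24.1, 26.9 and 39.3 FPKM (adjusted p = 0.634). The 4 NK markers summed to 0.122 to 0.207 FPKM in WT and 0.642 to 0.782 in the deficient group. The higher sum came from Klrb1c alone (0.0692 to 0.126 against 0.598 to 0.760), while Klre1 lay lower (0.0530 to 0.0808 against 0 to 0.0446), Klra8 was at or under 0.0300 and Ncr1 at 0 in 5 of 6 libraries. Klrb1c was below the level tested. In a fit with no filter it passed the threshold (log2 fold change 0.61, limma adjusted p = 0.0211), and Klre1 did not (adjusted p = 0.349). The part of such cells in these values was not tested.

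Of 20 listed genes of the Th1 programme 17 were tested and 0 called, with 8 positive fold changes and a median of -0.043. Ifng, the cytokine induced by T-bet, was at 1.47, 3.38 and 1.57 FPKM in WT and 4.16, 5.23 and 5.64 in deficient aTreg (log2 fold change 0.98, limma adjusted p = 0.160). Il18r1, a receptor subunit for IL-18, lay the other way at 11.8, 13.7 and 13.8 against 9.96, 8.70 and 7.96 FPKM (-0.52, adjusted p = 0.120). Of the IL-12 receptor and signalling genes upstream of T-bet, Stat4 had 69.2, 73.8 and 74.9 FPKM in WT against 22.0, 41.6 and 47.7 (limma adjusted p = 0.189), and Il12rb2, the IL-12 receptor subunit, 37.2, 33.6 and 29.2 against 3.33, 16.1 and 22.7 (adjusted p = 0.335). Both were lowest in deficient replicate 1. Stat4 passed the threshold without that library (limma adjusted p = 0.0463) and with weighted libraries (0.0246), and Il12rb2 did not without it (adjusted p = 0.135). Il12rb1, the other IL-12 receptor chain, overlapped between the groups at 8.62, 9.41 and 7.13 against 10.9, 7.88 and 8.65 FPKM (log2 fold change 0.11, adjusted p = 0.748).

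Gata3 (ENSMUSG00000015619, chromosome 2, 9857078 to 9890034), the Th2 factor that regulatory T cells also use, was among the best expressed of the 9. It had 28.2, 21.3 and 21.6 FPKM in WT and 33.4, 36.7 and 30.7 in the deficient libraries, so the groups were separate and the ratio of means was 1.42. The log2 fold change was 0.49 (SE 0.142, 95% interval 0.15 to 0.84, limma adjusted p = 0.195, exact permutation p = 0.1). Gm13256, a gene on the opposite strand that shares exon sequence with Gata3, was listed at 0.631 to 1.73 FPKM, and as strand handling is not given in the sources used here, reads of the 2 genes cannot be told apart. The Tbx21 to Gata3 ratio, a common readout of Th1 against Th2 balance, was 0.382, 0.466 and 0.331 in WT and 0.421, 0.306 and 0.398 in deficient aTreg. The ratios overlapped, and the mean log2 ratio differed by -0.066 between the groups.

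In the Th2 programme 6 of 16 listed genes were expressed enough to be tested and 0 were called, with a median of 0.14. Il4ra, the IL-4 receptor chain that signals towards Gata3, was at 39.6, 40.8 and 44.4 FPKM in WT and 25.5, 29.8 and 25.1 in deficient aTreg (log2 fold change -0.62, limma adjusted p = 0.0702). It passed the threshold among protein-coding genes alone (limma adjusted p = 0.0382) and with weighted libraries (0.0273). Ccr8, a chemokine receptor of Th2 and regulatory T cells, lay higher, at 74.5, 58.4 and 41.0 against 83.3, 148 and 140 FPKM (1.08, adjusted p = 0.192). The Th2 cytokine genes were below the level tested. Among Il4, Il5, Il9 and Il13, Il4 was the best expressed in 5 of 6 libraries. It was at 0.740, 0.834 and 1.82 FPKM in WT and 0.309, 1.03 and 0.425 in deficient aTreg, with overlap. Il10, also on that list, lay above Il4 in deficient replicates 2 and 3, at 1.23 and 0.702 FPKM. Il9 reached 2.27 FPKM in WT replicate 2 and was at or under 0.274 elsewhere, Il13 was at or under 0.388 and Il5 at or under 0.0366. Gata1, a relative of Gata3 known from red cell and mast cell precursors, was measured at 4.04, 5.44 and 5.47 FPKM in WT and 6.93, 8.90 and 7.55 in deficient aTreg (limma adjusted p = 0.169), while Gata2, Gata4, Gata5 and Gata6 were at or under 0.512 FPKM throughout.

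Maf had the largest fold change of the 8 tested factors on the log2(FPKM + 1) scale, while the plain ratio of means was larger for Rora. Maf (ENSMUSG00000055435, chromosome 8, 115682942 to 115707794) encodes c-MAF, which supports IL-10 and Th17 and Tfh functions. It had 9.14, 7.72 and 8.91 FPKM in the WT libraries against 17.5, 13.2 and 13.4 without BMPR1a. Every deficient library lay above every WT library, with replicate 1 highest, and the ratio of means was 1.71. The log2 fold change was 0.70 (SE 0.138, 95% interval 0.37 to 1.04) and the adjusted p 0.0915 in limma, with an exact permutation p of 0.1. Maf passed the threshold when only protein-coding genes were tested (limma adjusted p = 0.0441) and when libraries were weighted by their variability (adjusted p = 0.0111). Gm15655, an antisense gene that overlaps an exon of Maf, had 8.43, 5.71 and 7.40 FPKM in the WT libraries and 3.43, 14.7 and 14.0 in deficient aTreg. It was lowest in deficient replicate 1, where Maf was highest, and reads of the pair cannot be told apart without strand.

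Of 11 genes tied to c-MAF in T cells, 6 were tested and 0 called, with 1 positive fold change and a median of -0.35. The positive one was Ccr6, the chemokine receptor of Th17 cells, at 3.67, 5.80 and 6.12 FPKM in WT and 14.1, 12.0 and 10.7 in deficient aTreg (log2 fold change 1.11, SE 0.196, limma adjusted p = 0.0709), a value past the threshold among protein-coding genes alone (adjusted p = 0.0249). Ctla4, an inhibitory receptor gene, lay lower, at 238, 275 and 249 FPKM against 103, 204 and 203 (-0.64, adjusted p = 0.361). Il10 was between 0.288 and 1.23 FPKM and below the level tested. Among relatives, the small MAF gene Mafg was at 4.76 to 5.55 FPKM in WT and 6.82 to 7.45 in deficient aTreg (limma adjusted p = 0.135), and the large MAF gene Mafa was at or under 0.133 in each library.

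Rora (ENSMUSG00000032238, chromosome 9, 68653786 to 69388246) encodes ROR alpha, which acts in Th17 cells and marks effector-like regulatory T cells in tissues. Its values were 1.62, 1.59 and 1.89 FPKM in WT and 1.94, 3.61 and 3.63 in deficient aTreg. Deficient replicates 2 and 3 lay well above WT, and replicate 1 only just above the highest WT library. The ratio of means was 1.80, the log2 fold change 0.56 (SE 0.207, 95% interval 0.053 to 1.07) and the limma adjusted p 0.301. Without deficient replicate 1 Rora passed the threshold (log2 fold change 0.78, limma adjusted p = 0.0444), and it passed with weighted libraries (0.74, adjusted p = 0.0146). Its relative Rorb was at or under 0.0171 FPKM.

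Of 16 listed Th17 genes 9 were tested and 0 called, with a median of -0.14. Stat3, which carries IL-6 and IL-23 signals, was at 140, 135 and 136 FPKM in WT and 170, 160 and 159 in deficient aTreg (limma adjusted p = 0.305). Batf, the AP-1 partner of IRF4 in Th17 cells, lay the other way at 57.7, 58.9 and 52.0 against 26.4, 38.6 and 38.0 FPKM (log2 fold change -0.71, adjusted p = 0.141). Il23r and Il22 were at or under 0.0898 FPKM in all libraries. Il17a was at 1.53, 1.51 and 1.46 FPKM in WT, and spread from 0.101 to 2.55 in the deficient group.

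The aryl hydrocarbon receptor, a sensor of small aromatic ligands, was measured with its targets. Ahr (ENSMUSG00000019256, chromosome 12, 35497974 to 35535038) had 2.86, 3.22 and 2.34 FPKM in WT and 3.08, 4.44 and 5.27 in deficient aTreg. Deficient replicate 1 fell within the WT range and the other deficient libraries above it. The log2 fold change was 0.45 (SE 0.191, 95% interval -0.015 to 0.92, limma adjusted p = 0.342), and it passed the threshold only with weighted libraries (0.64, adjusted p = 0.0353). Cyp1a1, the cytochrome P450 gene that AHR is best known to induce, was called. Its level rose, with 2.27, 3.15 and 1.46 FPKM in the WT libraries against 8.89, 11.9 and 11.1 in the deficient ones, a log2 fold change of 1.84 (SE 0.217, limma adjusted p = 0.0263). All deficient libraries, replicate 1 included, lay far above WT. Dropping any single library except deficient replicate 1 ended the call (limma adjusted p between 0.0702 and 0.122) and with no filter on low values (adjusted p = 0.0518), with log2 fold changes between 1.65 and 2.03 when each of the 6 was dropped in turn.

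Ahrr, the AHR repressor that AHR itself induces, was at 2.63, 1.92 and 1.85 FPKM in WT and 3.97, 4.20 and 4.61 in deficient aTreg (log2 fold change 0.76, limma adjusted p = 0.0761; 0.0323 among protein-coding genes alone). Tiparp, another AHR-induced gene, was at 6.48, 6.93 and 5.97 FPKM in WT and 4.68, 9.54 and 10.5 in deficient aTreg, overlapping in replicate 1 (adjusted p = 0.677). Cyp1b1 was at or under 0.652 FPKM in each library. In all, 9 of 12 genes of the AHR pathway list were tested, 1 was higher and 0 were lower, with 6 positive fold changes and a median of 0.23. Gpr15, a homing receptor gene that AHR supports in T cells, was the 1 tested gene of the list that lay lower without overlap, at 19.7, 15.6 and 14.9 FPKM against 8.08, 13.1 and 11.4.

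**Figure D3:**
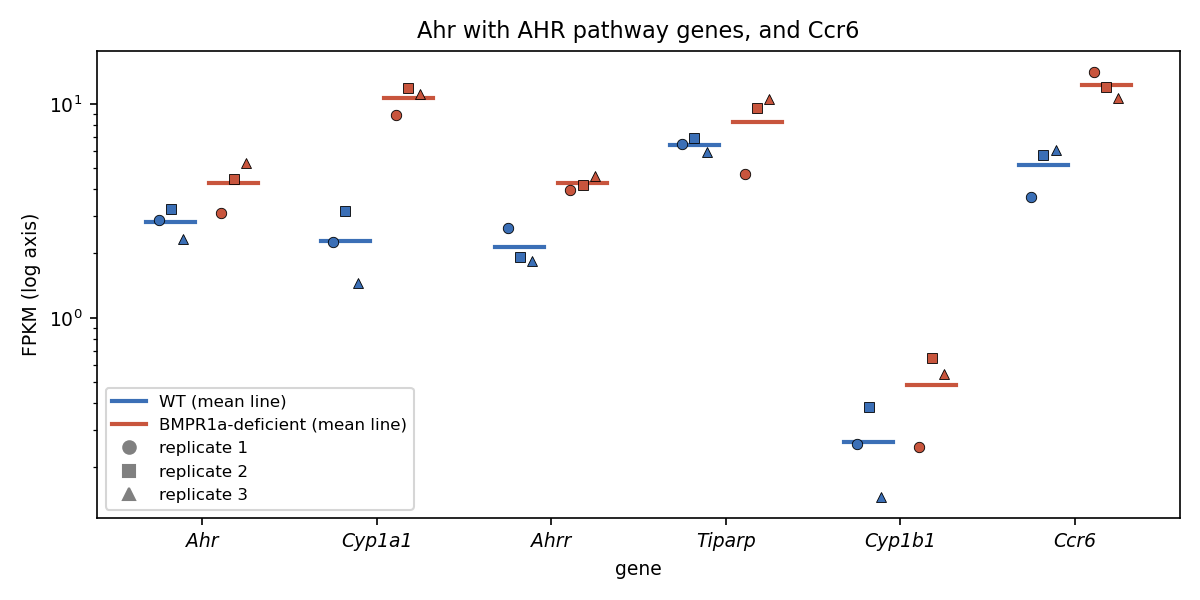
FPKM on a log axis of Ahr with 4 AHR-induced genes (Cyp1a1, Ahrr, Tiparp and Cyp1b1) and of the Th17 chemokine receptor gene Ccr6, one symbol for each library and a line at the mean of 3. Cyp1a1, Ahrr and Ccr6 lie without overlap, the 3 BMPR1a-deficient libraries above the 3 WT ones, while Ahr, Tiparp and Cyp1b1 overlap, with deficient replicate 1 the lowest of its group.

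Irf4 (ENSMUSG00000021356, chromosome 13, 30749226 to 30766976), which is induced in proportion to T cell receptor signalling, was the most abundant of the 9. It had 26.6, 34.3 and 24.8 FPKM in WT and 36.3, 30.4 and 35.1 in deficient aTreg. WT replicate 2 exceeded the lowest deficient library, so the groups overlapped, and the log2 fold change was 0.25 (SE 0.150, 95% interval -0.12 to 0.62, limma adjusted p = 0.469). B cells also express Irf4, and the B cell marker sums given above lay in the same range in both groups, apart from 335 FPKM in deficient replicate 1. Of the tested partners of IRF4, 0 of 10 were called and the median was -0.074. Batf, given above, and Fos (3.12, 6.03 and 8.80 against 1.65, 3.32 and 2.79 FPKM, limma adjusted p = 0.315) had the smallest p-values of that list.

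The opposed pair of Bcl6 and Prdm1 was unequal in level, and neither gene differed beyond its spread. Bcl6 (ENSMUSG00000022508, chromosome 16, 23965052 to 23988852), the repressor that directs Tfh cells, had 14.5, 12.4 and 14.7 FPKM in WT and 9.51, 14.6 and 13.0 in deficient aTreg. The groups overlapped and the log2 fold change was -0.17 (SE 0.169, 95% interval -0.58 to 0.25, limma adjusted p = 0.643). Deficient replicate 1 was the lowest library, and without it the log2 fold change was -0.0018. Prdm1 (ENSMUSG00000038151, chromosome 10, 44437177 to 44528501), whose product Blimp-1 ends Tfh and promotes effector states, had 0.348, 0.614 and 0.504 FPKM in WT and 0.236, 0.541 and 0.609 in deficient aTreg. These correspond to an estimated 45 to 117 fragments per library, so the level was low but measured. In a fit with no filter its log2 fold change was -0.031 (limma adjusted p = 0.933), on a scale that compresses low genes. Bcl6 exceeded Prdm1 in each library, by ratios of 41.6, 20.2 and 29.1 in WT and 40.3, 27.1 and 21.3 in deficient aTreg.

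Of 17 listed Tfh genes 15 were tested, 1 was higher and 1 lower over all genes, with a median of -0.21. Pdcd1, which encodes PD-1, rose from 15.2, 20.0 and 15.0 FPKM to 65.3, 42.0 and 42.0 (log2 fold change 1.50, limma adjusted p = 0.0450). Btla, an inhibitory receptor of Tfh and naive cells, fell from 23.9, 26.3 and 27.6 FPKM to 13.7, 15.7 and 15.4 (-0.76, adjusted p = 0.0388). Each of these 2 calls held without deficient replicate 1 and ended without any one of the other 5 libraries (limma adjusted p between 0.108 and 0.233 for Pdcd1 and between 0.0888 and 0.200 for Btla). That of Pdcd1 also ended with no filter on low values (adjusted p = 0.0736) and with upper-quartile scaling (adjusted p = 0.0596). Tcf7, which encodes TCF1 and acts upstream of Bcl6, was at 512, 499 and 584 FPKM in WT and 170, 374 and 361 in deficient aTreg (adjusted p = 0.287), and Lef1 at 164, 137 and 153 against 52.4, 103 and 98.9 (adjusted p = 0.230). Of the 11 genes known to be repressed by Blimp-1, 0 were called, and their median was -0.086. Ciita, the class II transactivator, was at 1.13 to 1.71 FPKM in WT and 2.03 to 2.61 in deficient aTreg (limma adjusted p = 0.274). It was the 1 gene of that list that lay higher without overlap, and 2 lay lower. These were Tcf7, given above, and Bach2, at 44.7, 49.0 and 58.2 against 20.6, 39.2 and 38.9 FPKM (adjusted p = 0.331).

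Among 31 other regulators of T cell fate 29 were tested, 1 was higher and 0 lower, and the median was -0.064. The call was Stat5a, an IL-2 signal transducer that opposes Bcl6 and the Th17 programme. Stat5a rose from 47.9, 50.7 and 48.9 FPKM to 79.3, 89.5 and 77.9 (log2 fold change 0.73, limma adjusted p = 0.0399). It lost the call without any one library other than deficient replicate 1 (adjusted p up to 0.198). Stat5b, the other STAT5 gene, overlapped at 81.7, 90.0 and 90.1 against 83.9, 103 and 97.4 FPKM (log2 fold change 0.11, limma adjusted p = 0.651). Satb1, a chromatin organiser of naive and regulatory T cells, was at 286, 268 and 285 FPKM in WT and 132, 189 and 171 in deficient aTreg (limma adjusted p = 0.0985). Satb1 passed the threshold in 3 of 17 alternatives: protein-coding genes alone, weighted libraries and without deficient replicate 1. Zbtb32, a zinc finger gene close to Bcl6 in family that restrains Gata3 function, was at 10.7, 15.8 and 8.72 against 45.0, 21.9 and 24.6 FPKM (adjusted p = 0.160). Of 46 relatives from the families of the 9 factors, 44 were measured, 22 were tested and 0 were called.

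Within the deficient group, replicate 1 lay apart from replicates 2 and 3 for several factors, in either direction. Relative to the WT mean on the log2(FPKM + 1) scale, Eomes stood at -1.17 in deficient replicate 1 against 0.14 and -0.44 in replicates 2 and 3, and Bcl6 at -0.49 against 0.08 and -0.08. Rora stood at 0.13 against 0.77 and 0.78, and Ahr at 0.11 against 0.52 and 0.73. Maf and Tbx21 went the other way, at 0.95 against 0.57 and 0.59 for Maf and 0.57 against 0.27 and 0.38 for Tbx21. Gata3, at 0.49, 0.62 and 0.37, and Irf4, at 0.35, 0.10 and 0.30, did not single out that library. Replicate 1 was lowest of all 6 libraries for Eomes, Bcl6 and Prdm1 and highest for Tbx21, Maf and Irf4. The part of its low mitochondrial messages in these values was not tested.

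**Figure D4:**
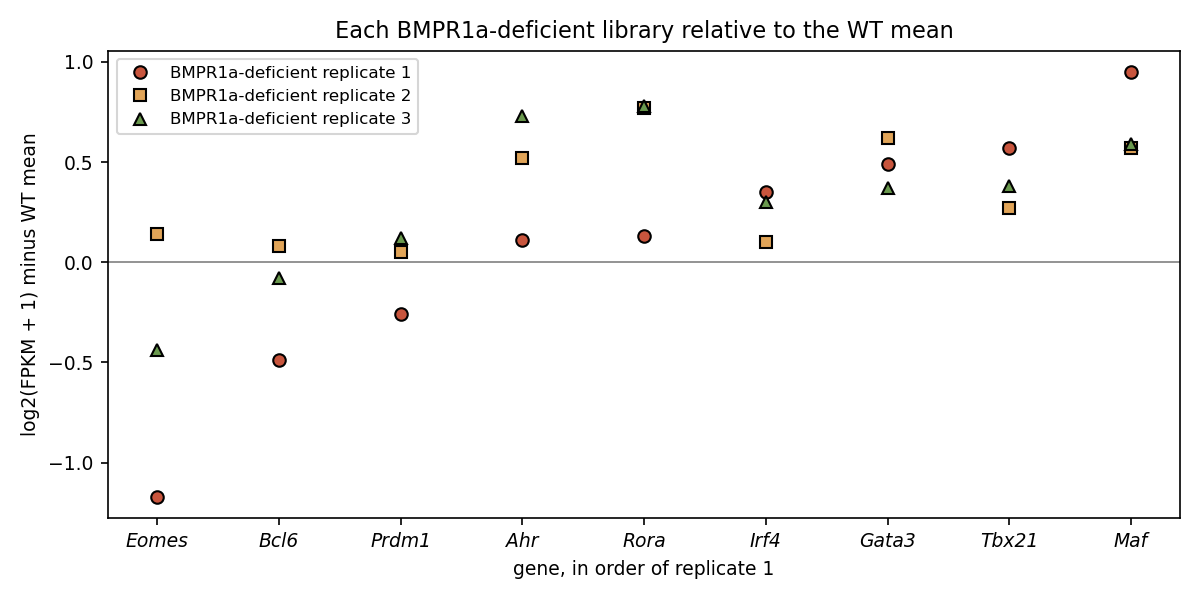
Log2(FPKM + 1) of each BMPR1a-deficient library minus the WT mean for the 9 factors, ordered by replicate 1. Replicates 2 and 3 lie close together for Rora and Maf, and replicate 1 lies apart from both for Eomes (-1.17), Bcl6 (-0.49), Rora (0.13) and Maf (0.95).

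For each tested factor the gene most alike in pattern was sought among 9995 other named protein-coding genes by Pearson's r of log2(FPKM + 1) over the 6 libraries. These were Aars2 for Tbx21 (r = 0.994), Stard5 for Eomes (0.998), Fbln1 for Gata3 (0.991) and Sap130 for Rora (0.994). For Maf it was Foxk1 (0.997), for Ahr Tpgs2 (0.996), for Irf4 Gss (0.995) and for Bcl6 Zfand3 (0.998). Between 201 and 514 genes exceeded r = 0.9 with each factor, as 6 points shared by all genes and falling into 2 groups allow many high values, so these names describe likeness and no more.

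**Figure D5:**
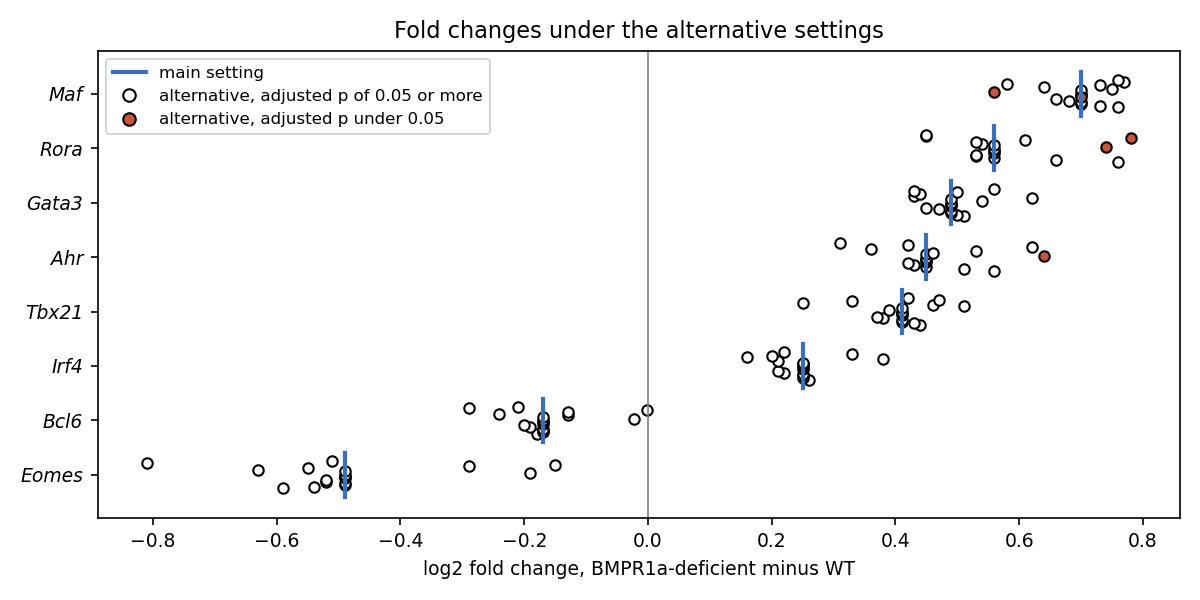
Log2 fold changes of the 8 tested factors under the main setting (blue line) and under up to 17 alternative settings (circles, filled where the adjusted p is under 0.05). Directions do not change for any factor, and filled circles appear for Maf (2), Rora (2) and Ahr (1).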

How the data were processed

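RNA from 6 libraries was sequenced after Qiagen extraction and standard Illumina library preparation, per the labels' protocols. The deposited values are FPKM, 1 column per library. TopHat2, Cufflinks and Cuffdiff and the build GRCm38.p4 are named per the submitters' processing notes; their versions and settings, the annotation and the use of strand were not given in the sources used here. Symbols and coordinates came from GENCODE M21 (GRCm38), which matched 24876 of 25759 identifiers (96.6%). The smallest steps of FPKM times transcript length pointed to about 30700000 to 38700000 fragments per library, an approximate depth, and fragments of low genes were estimated from it with the longest transcript.

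Genes with a mean of at least 1 FPKM entered a fit in R 4.3.3 (limma 3.58.1) of log2(FPKM + 1), group as the only factor, eBayes with trend, two-sided, Benjamini-Hochberg adjustment over all 13413 genes, threshold 0.05. The fold changes understate low genes. The fit was tested on simulated data. Single values were compared with exact permutation tests (scipy 1.17.1). The 9 genes, the 11 context lists and the 9 marker lists were chosen with earlier results of these data known, and list counts leave out the 9. Named are the 9, Bmpr1a, list genes past the threshold or, failing those, the 2 of smallest p, markers and the most alike genes. Satb1 was named as well, as the gene of smallest p after Stat5a in a list that held a call. Tiparp, Cyp1b1, Gpr15, Il17a, Il12rb1, Il12rb2, Stat4, Stat3, Stat5b, Tcf7, Lef1, Bach2, Zbtb32, the GATA, ROR and MAF relatives and the cytokine genes below the filter were named after their values were seen. Some single-gene values that this rule would name are not reported here. Alternatives varied the pseudocount, filter, scaling, biotypes, eBayes settings, library weights, a replicate block and each library left out.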

Additional observations from a re-analysis of the deposited data

How the results depend on the processing

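The 8 tested factors gave 134 fold changes under the 17 alternatives, and all 134 kept their direction. A filter at 5 FPKM left out Rora and Ahr. Of these, 5 newly passed the threshold: Maf with protein-coding genes only, Rora without BMPR1a-deficient replicate 1, and Maf, Rora and Ahr with limma array weights, which gave that library a weight of 0.117 and replicate 2 one of 4.18. The number of factors called was 0 in the main setting, 1 with protein-coding genes only, 3 with array weights and 0 to 1 with a library left out. Of all genes, 143 were called, against 296 with protein-coding genes only, 1240 with array weights, and 14 to 210 with a library left out. Of the listed context genes 4 were called (Btla, Cyp1a1, Pdcd1 and Stat5a), against 2 with no filter, 8 with protein-coding genes only, 24 with array weights and 0 to 6 with a library left out. Fits without a library have fewer samples. The cause of the other changes was not tested. Of called genes 69.9% were higher, against 58.6% with upper-quartile scaling and 55.7% with quantile normalization. With the replicate number as a block 10 of all genes, 0 of the factors and 0 of the context genes were called. Deviations of same-numbered libraries correlated at 0.010, 0.064 and 0.052. WT replicates 2 and 3 each correlated best with the deficient library of their number, and WT replicate 1 with deficient replicate 3 (0.041). These values are all near 0 and do not settle whether the numbers are pairs. The labels give groups and numbers only, so the numbers were not taken as pairs. Leaving out a deficient library left 4 to 7 of the 9 factors at their rank in that group. The low level of Prdm1 limits its value, and the exact test cannot go below p = 0.1.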
